A study of Mus musculus with 8 samples.

Results

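Spp1, the gene of the secreted phosphoprotein osteopontin, was examined together with 9 genes of its receptors and of microglia in the cortex of Ptbp2 knockout mouse embryos. The 10 genes were Spp1, Cd44, Itgav, Csf1r, Cx3cr1, Trem2, Tyrobp, Aif1, Cd68 and Ctss, out of 21451 genes named by at least 1 probe set. They were taken with earlier results of the same arrays in view: Spp1 had passed the test of gene level between knockout and wild type, and microglial genes had been seen to lean upward in that contrast. The knockout minus wild type values of these 10 genes are therefore given as a description, without a test. What that choice did not use is how the genes vary together among embryos of the same genotype, and this was tested.

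The samples were cortex of 4 Ptbp2 knockout and 4 wild type embryos at embryonic day 18.5, each measured on 1 Affymetrix exon array. All embryos had a mixed CD1 and C57BL/6 background. The design text calls each array a biological replicate, while the knockout allele, litters and sexes of the embryos are not stated in the labels. Ptbp2, the neuronal polypyrimidine tract binding protein, represses and activates alternative exons in maturing neurons. Its level was 5.95 ± 0.34 in knockout and 11.20 ± 0.14 in wild type cortex (log2 signal of the normalized arrays, SD, n = 4 each), a difference of -5.25 (adjusted p = 1.7e-12, limma with Benjamini-Hochberg adjustment). It was low on every array labelled knockout. Array medians lay between 6.82 and 6.93, and wild type 3 and knockout 3 had the lowest median correlation with the other arrays (0.974 each, against 0.978 to 0.985), so the results are also given without them. Xist was high and the Y-linked Eif2s3y low on knockout 2 and 4 and on wild type 3 and 4, the pattern of female embryos, and the reverse held on the other 4 arrays.

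As background, osteopontin is an extracellular matrix protein and cytokine that binds cells through CD44 and through integrins such as the one with the alpha v subunit. In the late embryonic and newborn mouse brain, Spp1 is known as a gene of amoeboid microglia, the phagocytic form that gathers in developing axon tracts, and it can also be made by other cells. Microglia are the resident macrophages of the brain. They depend on the growth factor receptor CSF1R, carry the fractalkine receptor CX3CR1, and signal through the lipid receptor TREM2 and its adaptor TYROBP.

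The windows before the start sites of Spp1 and Cd68 are shown because these 2 genes had the highest differences of the set, and because the myeloid factor PU.1 recognises a GAGGAA core. RefSeq windows of assembly GRCm38.p6 were found for 8 of the 10 genes. The 250 bases before each start were searched on both strands for GAGGAA, printed in capitals.

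Spp1: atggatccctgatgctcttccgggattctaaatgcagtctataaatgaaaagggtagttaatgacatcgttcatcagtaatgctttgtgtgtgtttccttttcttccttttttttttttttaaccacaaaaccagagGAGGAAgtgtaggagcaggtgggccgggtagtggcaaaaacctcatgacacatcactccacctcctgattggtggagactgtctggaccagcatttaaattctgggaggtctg

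Cd68: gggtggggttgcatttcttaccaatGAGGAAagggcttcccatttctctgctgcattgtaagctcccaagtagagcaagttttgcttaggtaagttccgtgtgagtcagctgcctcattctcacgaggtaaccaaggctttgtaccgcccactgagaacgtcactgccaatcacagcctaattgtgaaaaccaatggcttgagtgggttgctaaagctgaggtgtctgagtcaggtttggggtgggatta

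The Spp1 window lies on the forward strand at chr5:104434861-104435110, and its GAGGAA begins 113 bases before the start. A second annotated start of Spp1 had no match in its window. The Cd68 window lies on the reverse strand at chr11:69666171-69666420, with the match 225 bases before the start. A match was present for 7 of the 8 genes, all but Cx3cr1, against 25.9% of the 27025 genes with a window. The AP-1 letters TGANTCA, searched likewise and lying apart from the GAGGAA in the printed Cd68 window, were present for Cd68 and Trem2, 2 of the 8, against 7.82% of genes. A match is a description of these letters and not a site of binding.

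Spp1 signal was 2.24-fold higher in knockout than in wild type cortex. It was 9.60, 9.61, 9.51 and 8.93 in knockout 1 to 4, against 8.48, 8.57, 8.02 and 7.92 in wild type 1 to 4. Every knockout array lay above every wild type array, and the lowest of them, knockout 4, lay closer to wild type 1 and 2 than to any other knockout array. The means were 9.41 ± 0.33 and 8.25 ± 0.33 (log2 signal, SD, n = 4 each), a difference of 1.16. In bulk RNA, more cells of a type and more RNA per cell cannot be told apart. Spp1 was the 1 member called among the 8 that entered the test, where 0.116% of 12960 genes were called by limma at an adjusted p under 0.05. Since that contrast chose the gene, nothing is read from the count. The call was lost without the signal filter, with a minimum of 1 probe set, and without wild type 3 and knockout 3, where the difference was 1.06.

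**Figure D1:**
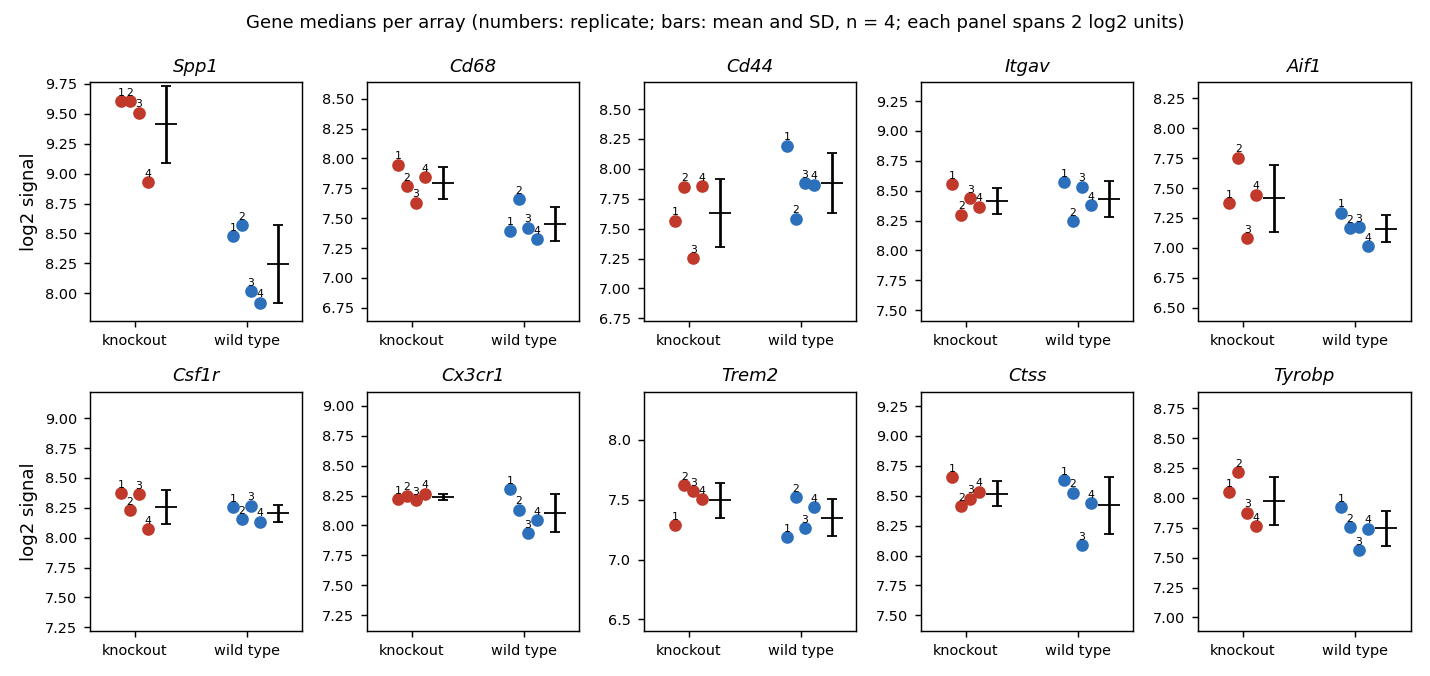
Log2 signal of the 10 genes on each array, knockout left and wild type right, with replicate numbers beside the points and the mean and SD (n = 4) as bars; each panel spans the same range. The knockout arrays of Spp1 lie at 8.93 to 9.61 and its wild type arrays at 7.92 to 8.57, while the groups overlap in each of the other 9 genes.

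The separate probe sets of Spp1 gave the same direction. Of 13 Spp1 probe sets, 10 passed the filter on low signal (a mean over the arrays of at least 6.84, the median of all probe sets), and all 10 were higher in knockout, by 0.86 to 1.63. In 8 of the 10 the groups did not overlap, against 2.73% of all retained probe sets in that direction. The contrast chose the gene and its probe sets read the same gene, so nothing is read from these counts. Probe set 5120940, with the highest difference, was at 7.87, 8.38, 7.76 and 7.30 in knockout 1 to 4, against 6.58, 7.02, 5.18 and 6.01 in wild type 1 to 4. Its wild type mean of 6.20 lay below that filter and it was kept through its knockout mean of 7.83, so the size is not exact. Probe set 4942344, with the lowest difference, was at 10.58, 11.04, 10.60 and 9.98 in knockout 1 to 4, against 9.82, 10.15, 9.21 and 9.55 in wild type 1 to 4. In that probe set knockout 4 lay below wild type 2. The 3 probe sets left out had means under the filter and differences of 0.31, 0.29 and 1.16. No Spp1 probe set was called for usage, the shift of a probe set against the rest of its gene, where diffSplice called 0.216% of probe sets.

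**Figure D2:**
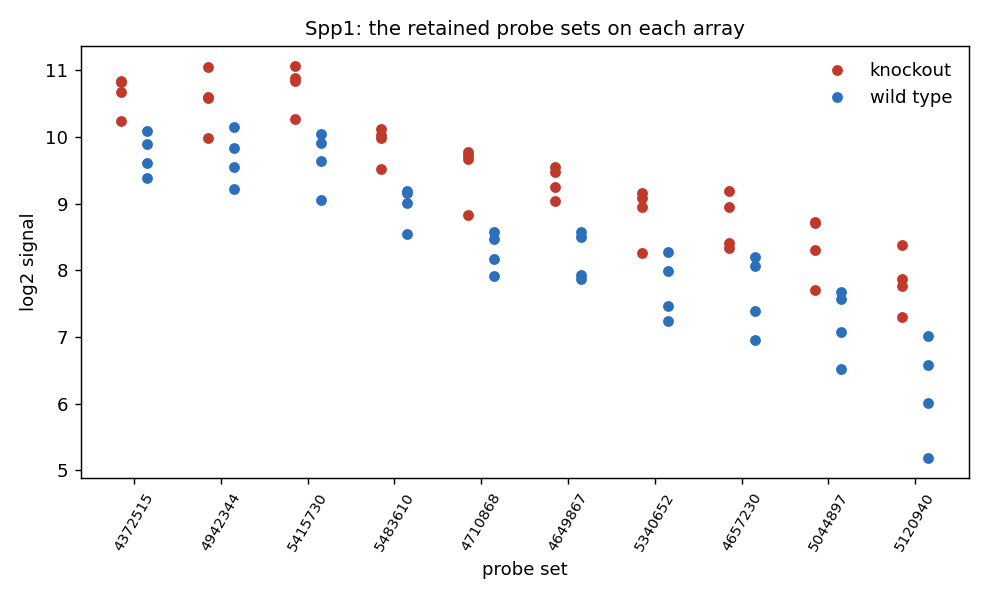
Log2 signal of the 10 retained Spp1 probe sets (x axis, probe set numbers ordered by wild type mean) on each array, knockout points left of wild type points. All 10 are higher in knockout on average, and in 8 the points of the groups do not overlap.

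The groups overlapped in both receptor genes of the set. Cd44, the hyaluronan receptor that also binds osteopontin, was at 7.57, 7.85, 7.25 and 7.86 in knockout 1 to 4, against 8.19, 7.58, 7.88 and 7.87 in wild type 1 to 4. The groups overlapped, with knockout 3 lowest and wild type 1 highest. Its means were 7.63 ± 0.29 and 7.88 ± 0.25 (SD, n = 4 each), a difference of -0.25. Itgav, the alpha v subunit of several osteopontin-binding integrins, was at 8.55, 8.30, 8.44 and 8.37 in knockout 1 to 4, against 8.57, 8.24, 8.53 and 8.38 in wild type 1 to 4. These values lay within the same range, and the difference was -0.016, with a sign that turned in 6 of 19 alternatives.

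Within Cd44, 13 of 31 probe sets passed the filter, and their differences ran between -1.14 and 0.089. Of the 13, 9 were lower and 4 higher in knockout, and the highest difference was that of probe set 4542928. Probe set 4461784, with the lowest difference, was at 5.36, 7.85, 5.57 and 7.23 in knockout 1 to 4, against 8.28, 7.34, 7.84 and 7.12 in wild type 1 to 4. Knockout 1 and 3 lay far below the other 6 arrays. Its knockout mean of 6.50 lay below the filter of 6.84, so the size is not exact. The groups did not overlap in 1 Cd44 probe set, 5330587, at 7.30, 7.77, 7.21 and 7.86 in knockout 1 to 4, against 8.10, 7.94, 7.88 and 7.87 in wild type 1 to 4. Over all retained probe sets 1.51% did not overlap in that direction. None of the 13 was called for usage, and the exons they lie in were not used here.

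The microglial surface receptors and their adaptor differed by less than Spp1. Csf1r, the receptor for CSF1 and interleukin 34 on which microglia depend for survival, was at 8.37, 8.23, 8.37 and 8.07 in knockout 1 to 4, against 8.26, 8.15, 8.27 and 8.13 in wild type 1 to 4. The groups overlapped and the difference was 0.056. Its 27 retained probe sets were split, 15 higher and 12 lower in knockout. Cx3cr1, the receptor for neuronal fractalkine, was at 8.22, 8.25, 8.21 and 8.26 in knockout 1 to 4, against 8.30, 8.13, 7.93 and 8.04 in wild type 1 to 4. The knockout arrays lay close together, all below wild type 1, with a difference of 0.13.

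Trem2, the lipid-sensing receptor of phagocytic microglia, was at 7.29, 7.62, 7.57 and 7.50 in knockout 1 to 4, against 7.18, 7.52, 7.26 and 7.44 in wild type 1 to 4. The groups overlapped, with a difference of 0.15. Of its 6 retained probe sets 5 were higher in knockout, 2 of them without overlap, against 2.73% of all retained probe sets. Of those 2, probe set 4693084 had a wild type mean of 6.80, below the filter of 6.84, and was kept through its knockout mean of 7.12. Since the contrast chose the gene, nothing is read from this count. Tyrobp, the adaptor that carries the TREM2 signal, was at 8.05, 8.21, 7.88 and 7.76 in knockout 1 to 4, against 7.92, 7.76, 7.56 and 7.74 in wild type 1 to 4. Every knockout array lay above the wild type median, and knockout 3 and 4 lay below wild type 1. The difference was 0.23, and it was -0.12 with a stricter signal filter, which left 1 Tyrobp probe set.

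The intracellular markers came next. Aif1, the actin-binding protein known as IBA1, was at 7.37, 7.75, 7.08 and 7.44 in knockout 1 to 4, against 7.29, 7.17, 7.17 and 7.01 in wild type 1 to 4. Knockout 3 lay below 3 wild type arrays, and the difference was 0.25. Cd68, a lysosomal glycoprotein of phagocytes, was at 7.95, 7.77, 7.63 and 7.84 in knockout 1 to 4, against 7.40, 7.66, 7.42 and 7.33 in wild type 1 to 4. Knockout 3 lay just below wild type 2, and all other knockout arrays lay above all wild type arrays. The means were 7.80 ± 0.13 and 7.45 ± 0.14 (SD, n = 4 each), a difference of 0.35, and all 10 of its probe sets were higher in knockout, by 0.17 to 0.60. Of the 10, probe set 4451179 had a wild type mean of 6.71, below the filter of 6.84, and was kept through its knockout mean of 7.04. Since the contrast chose the gene, nothing is read from the count of its probe sets. Ctss, the lysosomal protease cathepsin S, was at 8.66, 8.41, 8.48 and 8.53 in knockout 1 to 4, against 8.63, 8.52, 8.09 and 8.44 in wild type 1 to 4. The groups overlapped with a difference of 0.099, which was -0.013 without wild type 3, the lowest array.

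Of the 9 genes other than Spp1, 7 had a higher mean and 2 a lower mean in knockout. Their median difference was 0.13, against 0.0027 over all genes tested, and the groups overlapped in each of them, where 3.65% of all genes did not overlap. Aif1 and Cx3cr1 had 3 retained probe sets each, under the minimum of 4, and so have values but did not enter the tests across genes. The mean of the 7 microglial genes (Csf1r, Cx3cr1, Trem2, Tyrobp, Aif1, Cd68 and Ctss) was 7.96 ± 0.067 in knockout and 7.78 ± 0.089 in wild type cortex (SD, n = 4 each). By array it was 7.99, 8.04, 7.89 and 7.92 in knockout 1 to 4, against 7.86, 7.84, 7.67 and 7.73 in wild type 1 to 4, so the groups did not overlap. Those genes were chosen on this contrast, and no p is given. On this mean the knockout lay 0.18 above wild type, against 1.16 for Spp1.

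Whether Spp1 travelled with the microglial genes from embryo to embryo was asked next. Spp1 separated the genotypes, so a correlation over all arrays would mostly restate the group difference. Each gene was instead taken as its deviation from its group mean on the 8 arrays. Within a genotype Spp1 lay above its group mean on knockout 1, 2 and 3 (by 0.19, 0.19 and 0.097) and on wild type 1 and 2 (by 0.23 and 0.32). It lay below on knockout 4 (-0.48) and on wild type 3 and 4 (-0.23 and -0.33).

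These deviations of Spp1 were shared by its own probe sets. The mean pairwise Pearson r between the 10 Spp1 probe sets after removal of group means was 0.86, with single pairs at 0.56 to 0.96. The same measure had a median of 0.19 over the 12960 genes tested and was lower than that of Spp1 in 99.9% of them. For the other genes it was 0.57 in Ctss, 0.42 in Cd68, 0.33 in Cx3cr1, 0.31 in Itgav and 0.18 in Tyrobp. It was 0.054 in Aif1, 0.045 in Cd44, -0.0037 in Csf1r and -0.0064 in Trem2. With a value near 0, as in the last 4 genes, the median of the probe sets carries little that the single probe sets share, which limits any correlation with it.

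**Figure D3:**
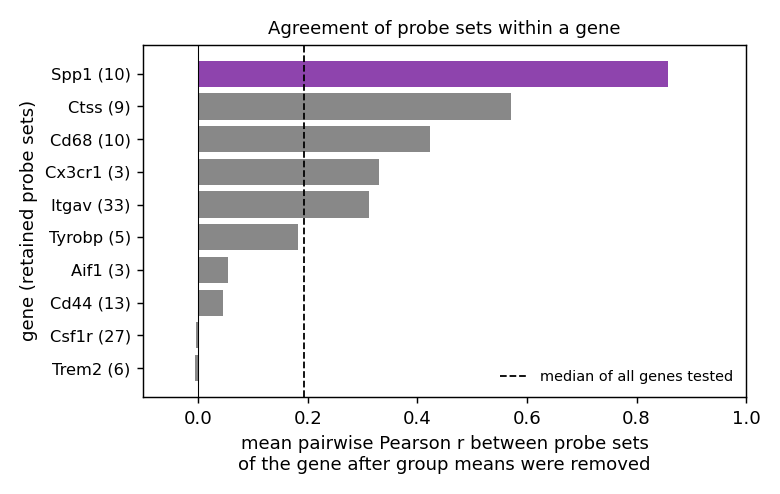
Mean pairwise Pearson r between the retained probe sets of each gene over 8 arrays after group means were removed (bars; number of probe sets in brackets), with the median of all genes tested as a dashed line. Spp1 stands at 0.86 and the dashed line at 0.19, while Aif1, Cd44, Csf1r and Trem2 lie near 0.

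Of the 9 genes, Tyrobp had the highest Pearson r with Spp1 within genotypes, with gene medians over all 8 arrays. Its r was 0.71 (two-sided exact permutation p = 0.0955, all arrangements within groups) and its Spearman coefficient 0.76 (exact permutation p = 0.0313, n = 8). Without knockout 4 and wild type 4, the 2 arrays farthest from the median Spp1 deviation, r was 0.69. With no signal filter it was 0.15, below Cx3cr1 (0.73) and Ctss (0.61), and with the stricter filter 0.17, so the order of the genes depends on the probe sets kept. Csf1r followed with r = 0.56 (exact permutation p = 0.198) and Spearman coefficient = 0.29 (exact permutation p = 0.502, n = 8). Without those 2 arrays its r was -0.49. Without knockout 4 alone it was -0.0031, and without wild type 4 alone 0.50, so the relation rests on knockout 4.

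Cx3cr1 had r = 0.45 (exact permutation p = 0.377) and Spearman coefficient = 0.60 (exact permutation p = 0.281), and r = 0.80 without the 2 arrays. For Ctss r was 0.42 (exact permutation p = 0.392) and the Spearman coefficient 0.43 (exact permutation p = 0.365), and r = 0.87 without them. Cd68, which had the highest difference after Spp1, had r = 0.32 (exact permutation p = 0.458) and Spearman coefficient = 0.33 (exact permutation p = 0.470), and r = 0.49 without them. By genotype, r in Cd68 was 0.73 among the wild type arrays and -0.11 among the knockout arrays. The same 2 values were 0.75 and -0.66 in Cx3cr1, and 0.67 and -0.059 in Ctss. Each is over 4 arrays and so a value only. Of the 6 arrays left without knockout 4 and wild type 4, wild type 3 was lowest in Spp1, Cx3cr1 and Ctss.

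Aif1 was at r = 0.21 (exact permutation p = 0.620) and Spearman coefficient = 0.26 (exact permutation p = 0.542), and at r = 0.22 without the 2 arrays. Trem2 stood at r = -0.011 (exact permutation p = 0.993) and Spearman coefficient = 0.19 (exact permutation p = 0.681), with r = 0.26 without them. For the receptor genes the values were near 0 or negative. Cd44 had r = -0.26 (exact permutation p = 0.557) and Spearman coefficient = -0.12 (exact permutation p = 0.806), and 0.016 without the 2 arrays. Itgav had r = -0.016 (exact permutation p = 0.988) and Spearman coefficient = -0.12 (exact permutation p = 0.809), and -0.44 without them. These were 9 relations with 2 coefficients each, and their permutation p values are not adjusted for that number. The lowest, an exact permutation p of 0.0313 for the Spearman coefficient of Tyrobp, is therefore not read alone. In the fit of all genes, adjusted over 12959 of them, the 7 that were tested had adjusted p = 0.9999 each. That fit had little power, as described below, so these adjusted values cannot show that a relation is absent.

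**Figure D4:**
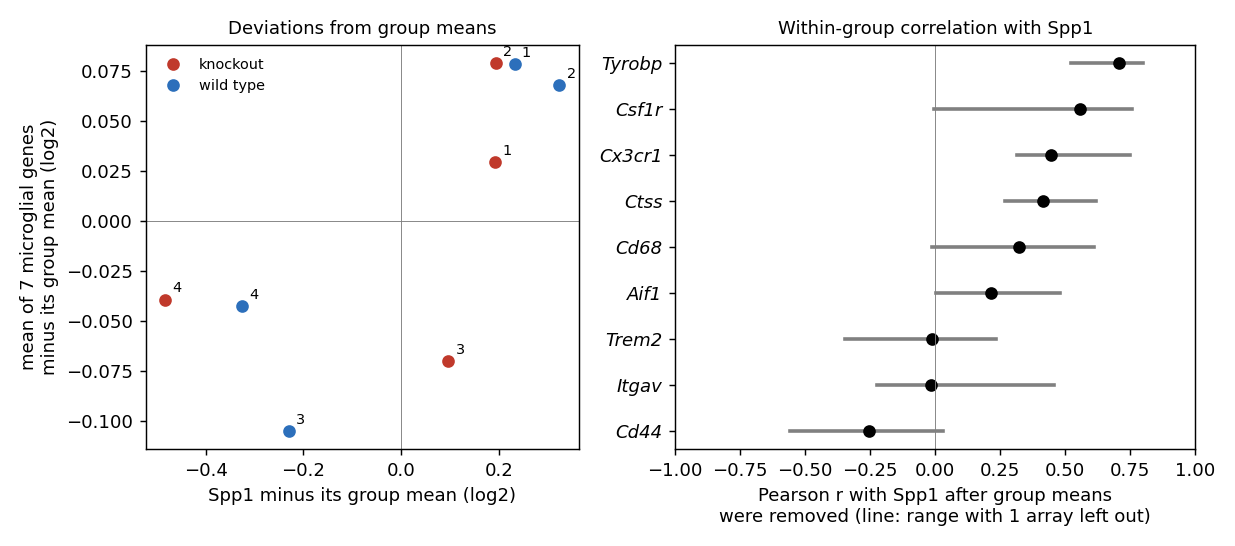
Left, the deviation of Spp1 from its group mean (x axis, log2) against that of the mean of 7 microglial genes (y axis, log2), 1 point per array with its replicate number. Right, Pearson r of each gene with Spp1 after removal of group means (points, n = 8), with the range over fits that leave out 1 array (lines), from Tyrobp at 0.71 to Cd44 at -0.26.

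The mean of the 7 microglial genes had an r close to that of Tyrobp. Its r with Spp1 after removal of group means was 0.73 and its Spearman coefficient 0.69, given as a description because the genes were chosen (n = 8). Knockout 1 and 2 and wild type 1 and 2 were above their group means in both, and knockout 4 and wild type 3 and 4 below in both. Knockout 3 was above its mean in Spp1 and below it in the microglial mean. With 1 array left out r ran from 0.66 to 0.87, without the 2 farthest arrays it was 0.88, and it was 0.94 without wild type 3 and knockout 3. The spread of the microglial mean was small beside that of Spp1, at most 0.10 from the group mean against 0.48.

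The Xist level moved with the same deviations. Within genotypes Spp1 had an r of -0.76 with Xist, the RNA of the inactive X chromosome, so that the wild type arrays with high Xist, 3 and 4, were those with low Spp1. Among the knockout arrays with high Xist, replicate 4 was low and replicate 2 was not. With the Xist level held as well as the genotype, the r of Spp1 with the microglial mean was 0.69. For single genes it was then 0.77 in Tyrobp and 0.73 in Aif1, but lower than without Xist in Csf1r (0.21), Cd68 (0.18), Cx3cr1 (0.13) and Ctss (-0.19). Each genotype held 2 arrays with high Xist, so the Spp1 difference between genotypes barely changed with the Xist level held. The part of sex in the deviations was not tested further.

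The fit across all genes asked which genes followed Spp1 at a given genotype. With limma 0 of 12959 genes passed at an adjusted p under 0.05 (0% called), and 229 (1.77%) had an unadjusted p under 0.05. The fit had little power. Lrrc3, with r = 0.98, had an unadjusted limma p of 0.042, and Usp31, with r = 0.94, one of 0.15. The count of 0 therefore cannot show that no gene follows Spp1. By r alone, the genes most like Spp1 over the 8 arrays were Lrrc3 (0.98), Mfhas1 (0.96), Smpd3, a neutral sphingomyelinase (0.95), Usp31, a ubiquitin protease (0.94), and Cdc42se2, a Cdc42 effector (0.94). The most opposed were Ubp1 (-0.98), the transporter gene Abcc5 (-0.93), Rhot2, a gene of mitochondrial transport (-0.92), the inositol phosphate kinase gene Ip6k1 (-0.92) and Abca13 (-0.92). No gene of the microglial lists was among these 10, which is a small part of 12959 genes. In order of r, Cd9 ranked 21, Fcer1g 26 and Ctsl of the cathepsin list 7, while Igf1 ranked 10469 and Npc2 of the cathepsin list 12764. These 5 were named after their values were seen. Tyrobp ranked 323 and Csf1r 1021 in order of r, and the range from the 5 to the 95 percentile of all genes ran from -0.55 to 0.62, around a median of 0.048.

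Markers of myeloid cells outside the 10 genes were then set beside Spp1. The homeostatic microglia list held 25 genes, of which 15 were tested, 8 higher and 7 lower in knockout. None passed over all genes (0 called by limma, 2 at an unadjusted p under 0.05). The median difference was 0.011, with a sign that turned in 6 of 19 alternatives, quantile and cyclic loess normalization among them, against 0.0027 over all genes. Cd53, a tetraspanin of leukocytes, had 0.34 (SE 0.13, adjusted p = 0.72) and Laptm5, a lysosomal membrane protein of leukocytes, 0.21 (SE 0.089, adjusted p = 0.75). Fcrls differed by 0.20 and Sall1, a microglial identity factor in the brain that neural progenitors also express, by -0.18. The mean level of the 15 lay between 8.22 and 8.40 on knockout arrays and between 8.09 and 8.34 on wild type arrays, where wild type 3 was lowest.

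The defining surface markers of resting microglia were weakly measured. Of the 10 list genes that did not enter the test, 8 had 1 to 3 retained probe sets and 2 had no named probe set. P2ry12, the purinergic receptor of resting microglia, was at 7.71, 7.85, 7.58 and 7.63 in knockout 1 to 4, against 8.46, 7.83, 7.46 and 8.21 in wild type 1 to 4. The difference was -0.30 and the groups overlapped. Tmem119 (-0.17), Siglech (-0.14), P2ry13 (-0.14), Spi1 (-0.037) and Gpr34 (0.0074) also overlapped. The groups did not overlap in 2 of the 8, Mpeg1, the pore-forming perforin-2 of macrophages, and C1qa, a chain of complement C1q. Of all tested genes 3.65% did not overlap, but those have at least 4 retained probe sets, so that share is not a like background for these 8. Mpeg1 was at 8.05, 8.03, 7.85 and 7.64 in knockout 1 to 4, against 7.27, 7.31, 6.90 and 7.41 in wild type 1 to 4, over 2 probe sets. C1qa was at 8.83, 8.39, 8.67 and 8.44 in knockout 1 to 4, against 8.20, 8.24, 8.13 and 8.25 in wild type 1 to 4, over 3 probe sets. These genes are described without a test and were named after their values were seen.

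In the list of amoeboid and axon tract microglia, the phagocytic state in which Spp1 is known, 10 of 15 tested genes were higher and 5 lower in knockout, with a median of 0.056 and 0 called by limma (2 at an unadjusted p under 0.05). Gpnmb, a transmembrane glycoprotein of phagocytes, was at 7.97, 8.27, 8.00 and 7.90 in knockout 1 to 4, against 7.52, 7.73, 7.62 and 7.82 in wild type 1 to 4. The groups did not overlap, and the difference was 0.36 (SE 0.10, adjusted p = 0.42). Igf1, a growth factor that these microglia are known to secrete, lay the other way, at 7.85, 7.61, 7.83 and 7.71 in knockout 1 to 4, against 8.04, 7.89, 8.72 and 7.95 in wild type 1 to 4. Here too the groups did not overlap, and the difference was -0.40 (SE 0.15, adjusted p = 0.69), with wild type 3 well above the rest. Gpnmb and Igf1, in opposite directions, were the 2 of the 15 without overlap, against 3.65% of all genes tested. Lgals1 (0.15) and Cd9 (0.12) did not pass.

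**Figure D5:**
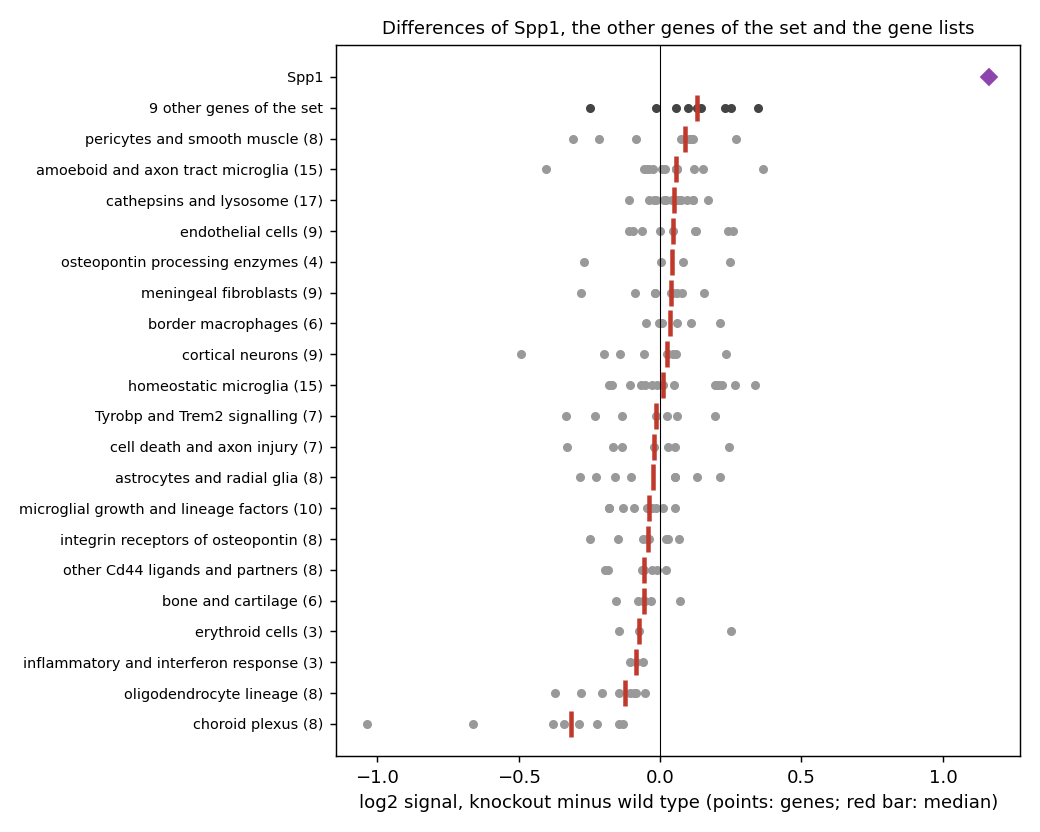
Difference in log2 signal, knockout minus wild type, for Spp1 (diamond, 1.16), the other 9 genes of the set and the tested genes of each list with at least 3 (points; number tested in brackets), with red bars at medians. The median of the 9 genes is 0.13 and that of the homeostatic microglia list 0.011, and no list gene passed the test across all genes.

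Border macrophages, which line vessels and meninges, had 6 tested genes with a median of 0.034 and 0 called by limma (1 at an unadjusted p under 0.05). Stab1, a scavenger receptor with 68 probe sets, was higher without overlap, with a difference of 0.21 (SE 0.088, adjusted p = 0.75), while Dab2 had 0.11, Mrc1 0.062 and Cd163 -0.051. Of the 6 genes, 1 was without overlap, against 3.65% of all genes tested. Monocyte, neutrophil and lymphocyte lists had 1 tested gene each of 12 and 10, so blood leukocytes were poorly measured here. Cathepsin and lysosome genes, to which Ctss and Cd68 belong, were higher in 13 of 17 with a median of 0.051 and 0 called (0 at an unadjusted p under 0.05). Ctsz had 0.17, Ctsd 0.12, Gusb 0.12 and Psap -0.11.

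No partner of osteopontin in the lists passed. Of 8 further integrin subunits that form osteopontin receptors, 3 were higher and 5 lower, with a median of -0.043 and 0 called by limma (0 at an unadjusted p under 0.05). Itgb6 differed by -0.25, Itga9 by -0.15, Itgb1 by 0.068 and Itgb3 by -0.059. Of 8 other ligands and partners of Cd44, 7 were lower and 0 passed (0 at an unadjusted p under 0.05), with Mmp14, which sheds CD44, at -0.19 and Cd74 at -0.18. Among 4 enzymes that cleave, crosslink or phosphorylate osteopontin, Plg, the plasminogen gene, had -0.27 and Mmp9, a matrix protease, 0.25, with adjusted p = 0.71 and 0.77. The other members of the osteopontin gene family, Dmp1, Dspp, Ibsp and Mepe, did not enter the test. Microglial growth and lineage factors were lower in 8 of 10 with a median of -0.040 and 0 called (0 at an unadjusted p under 0.05), with Il34 at -0.18, Tgfb3 at -0.13 and Cx3cl1, the ligand of CX3CR1, at -0.093. In the signalling list of Tyrobp and Trem2 limma called 0 of 7, and an unadjusted p under 0.05 was reached by 2, Blnk (-0.33) and Vav1 (-0.23). Fcer1g, an adaptor akin to TYROBP, had 0.19, and the kinase gene Syk -0.13.

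Other sources of Spp1 were looked at by their markers. Mean levels of the tested bone and cartilage genes lay between 8.31 and 8.55 on knockout arrays and between 8.40 and 8.56 on wild type arrays, with 1 of 6 higher. Pericyte and smooth muscle genes lay between 8.84 and 9.04 on knockout and between 8.87 and 8.96 on wild type arrays, with 5 of 8 higher. Meningeal fibroblast genes lay between 8.90 and 9.42 on knockout and between 9.06 and 9.20 on wild type arrays, with 5 of 9 higher. In each the groups overlapped. Choroid plexus genes were lower in 8 of 8, at means of 7.47 to 9.05 on knockout and 8.83 to 8.97 on wild type arrays. Knockout 2 was the lowest array in 7 of the 8, and without it 4 of 8 were lower. Oligodendrocyte genes were lower in 8 of 8, at 8.28 to 8.36 on knockout and 8.40 to 8.71 on wild type arrays, without overlap of these means, and cortical neuron genes lay at 10.76 to 10.88 on knockout and 10.80 to 10.96 on wild type arrays. The part of these cell types in the Spp1 difference was not tested. Over all lists 162 genes were tested, 0 passed with limma, and 21 had an unadjusted p under 0.05, 9 higher and 12 lower, against 6.49% of all genes. The groups did not overlap in 9 of the 162 (5.56%), 4 higher and 5 lower, against 3.65% of all genes. The lists were chosen with earlier results of these data known, so nothing is read from these shares.

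The r of list genes with Spp1 within genotypes is a description over 8 arrays. Over all genes 55.1% had an r above 0. In the homeostatic microglia list 13 of 15 had an r above 0, with a median of 0.28. In the border macrophage list it was 5 of 6, with a median of 0.55, and in the cathepsin list 13 of 17, with a median of 0.24. In the list of amoeboid and axon tract microglia, the state in which Spp1 is known, it was 9 of 15, with a median of 0.11. In the signalling list of Tyrobp and Trem2 it was 3 of 7, with a median of -0.067. Ctsl, cathepsin L, had r = 0.93, Cd9 0.89, Fcer1g 0.89 and Ctsc, cathepsin C, 0.88, all named after their values were seen. Their levels between genotypes differed little, by 0.053, 0.12, 0.19 and 0.015. Other genes of the cathepsin and amoeboid lists had a negative r, such as Npc2 (-0.69), Lgals3 (-0.29) and Igf1 (-0.28), also named after their values were seen. Integrin receptors of osteopontin had a median r of -0.043 with 2 of 8 above 0, and endothelial genes one of 0.0099. Among the other lists, medians were 0.41 for cell death and axon injury, 0.36 for inflammatory genes (3 tested), 0.26 for cortical neurons and 0.20 for meningeal fibroblasts. The border macrophage median of 0.55 lay above all of these, while that of the homeostatic microglia list, 0.28, lay among them.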

How the data were processed

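The authors deposited 1 log2 signal per probe set and array. The submitters' processing notes name RMA, Expression Console and mm9; their roles and versions are not given in the sources used. RMA normalizes between arrays and compresses low signals. The number of arrays limits the precision. The platform annotation gave exactly 1 symbol to 303629 of 625534 probe sets, and 5892 with several symbols were not named. Symbols were updated through RefSeq (3919 of 21634). The filter kept the 312767 probe sets whose mean signal reached the median of all such means, 6.84. A gene value was the median of its retained probe sets, and 12960 genes with at least 4 were tested in limma 3.58.1 (R 4.3.3; lmFit, eBayes) with Benjamini-Hochberg adjustment at 0.05. Genes that follow Spp1 were tested with genotype and the Spp1 level as terms. Usage was tested with diffSplice. The fits were checked on simulated arrays. Named genes were the 10 members, Ptbp2, the 5 highest and 5 lowest r with Spp1, the highest and lowest probe set of a member, and from each list up to 4 genes by unadjusted p, of which some are not printed; exceptions are stated. The members and lists were chosen with earlier results of these data known. Alternatives were other filters, summaries, normalizations and model options, a block, the Xist level and each array left out. The fit without wild type 3 and knockout 3, the choroid plexus count without knockout 2 and the alternatives for r were chosen after seeing the data.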

Additional observations from a re-analysis of the deposited data

Results flagged for a closer look

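A sample far from the other 3 of its group, by Dixon's 95% critical value for 4 values, occurred in 11 of 188 groups looked at, and chance flags about 1 in 20 groups. In Spp1, knockout 4 was at 8.93 against 9.51 to 9.61 on the other knockout arrays. The list of cell death and axon injury genes had 1 knockout array at a mean of 8.95 against 9.12 to 9.15. Knockout 4 was also the outlying array in Smpd3, at 9.80 against 9.989 to 9.999, and in Rhot2, at 9.24 against 8.94 to 8.96. Both genes were picked by their r with Spp1, so their flags are not independent of that of Spp1. In knockout cortex, Fcrls had 1 array at 8.67 against 8.42 to 8.46 and Tmem119 1 at 7.24 against 6.92 to 6.96. In wild type cortex, 1 array had a mean of 8.09 in the homeostatic microglia list against 8.31 to 8.34. The border macrophage list had 1 wild type array at 8.37 against 8.22 to 8.24, and the oligodendrocyte list 1 at 8.71 against 8.40 to 8.45. In Ttr, a choroid plexus gene, knockout 2 was at 9.36 against 13.2 to 13.3 on the other knockout arrays, and 1 wild type array was at 13.375 against 13.319 to 13.326.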

How the results depend on the processing

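The Spp1 difference kept its sign and stayed within 1 SD of 1.16 in all 19 alternatives, between 0.91 with the filter at the 75th percentile and 1.33 without knockout 4 (1.06 to 1.33 with 1 array left out). Its call was kept in 16 of the 19. Deviations of same-numbered arrays correlated at -0.0039 to 0.25, and 2 of 4 numbers matched best with themselves. Knockout 1 to 4 matched best with wild type 1, 3, 2 and 4, each an array with the same Xist pattern. Whether replicate numbers pair the arrays, for instance by litter, cannot be told from these values. With the replicate block the Spp1 difference was again 1.16 and 22 genes changed. The median difference of the other 9 genes was 0.13, 0.077 to 0.17 with 1 array left out, and -0.014 under the stricter filter (75th percentile), which left values for 7 of them. There Cd44 was at 0.14, Csf1r at -0.024, Ctss at -0.014 and Tyrobp at -0.12, each over fewer probe sets. The median of the homeostatic microglia list was -0.037 to 0.077 with 1 array left out. The number of genes changed was 15 and became 7 with no signal filter, 25 with the filter at the 75th percentile, 5 with a minimum of 1 probe set, 37 with the mean of probe sets, 24 with quantile normalization, 71 with array weights, 9 without wild type 3 and knockout 3, and 7 to 15 with 1 array left out. The number of genes that follow Spp1 was 0, and 4 with the Xist level as a covariate (Ttr, Clic6, Car12 and Ecrg4, all opposed). Ttr, a choroid plexus gene, was at 9.36 on knockout 2 and at 13.2 to 13.4 on every other array, and knockout 2 also had the highest Spp1 given genotype and Xist (0.40 above the fit). It was 0 to 3 with 1 array left out, the 3 being Xist, Eif2s3y and Kdm5d without knockout 2, with 190 to 399 at an unadjusted p under 0.05. That unadjusted count, 229, was 1878 with the block, 797 with the stricter filter, 649 with array weights, 625 with no filter and 501 with the mean of probe sets. With the mean of probe sets in place of the median, the r with Spp1 was 0.82 in Cx3cr1 (exact permutation p = 0.0295, range over its alternatives 0.0295 to 0.660), 0.74 in Ctss (exact permutation p = 0.0260, range 0.0260 to 0.674) and 0.81 in Tyrobp (exact permutation p = 0.0191, range 0.0191 to 0.773). In Tyrobp r fell to 0.15 with no filter and 0.17 with the stricter one. The cause was not tested. Signals near the filter limit Aif1, Trem2, Cd44 and the surface markers of microglia.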

Other observations

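Ccl3, a chemokine of activated macrophages, had 3 retained probe sets and so no test. It was at 8.49, 8.82, 8.71 and 8.05 in knockout 1 to 4, against 8.09, 8.08, 7.45 and 7.49 in wild type 1 to 4, a difference of 0.74. Only knockout 4 crossed the wild type arrays, and the r with Spp1 after removal of group means was 0.94 (n = 8, as a description). Mpeg1 differed by 0.67 and had an r of 0.56, and C1qa differed by 0.38 with an r of 0.35. Ccl4, a related chemokine, differed by 0.0047 over 1 probe set. Other genes of these lists with 1 to 3 probe sets lay lower or close to wild type, Cst7 at -0.30, P2ry12 at -0.30 and Lilrb4a at -0.062 (r -0.49), and Clec7a at 0.083. These genes were named after their values were seen.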
